A study of Homo sapiens with 8 samples.

Results

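The comparison described here set cells overexpressing the actin mutant G13R against cells expressing GFP, both after serum stimulation. It took all genes with at least 1 FPKM (fragments normalized to transcript length and to the mapped fragments of the library) in at least 2 of the 8 libraries of the series, which were 12996 of the 22504 genes listed, or 57.75%. It used 4 of the 8 libraries, 2 labelled G13R-Serum and 2 labelled GFP-Serum. The other 4, 2 labelled G13R-Normal and 2 labelled GFP-Normal, came from the same cells in normal growth and served to set the serum difference beside the one without serum. All cells were U2OS, an established human osteosarcoma line, and poly(A) RNA was sequenced. The series asks how actin in the nucleus bears on inducible transcription by RNA polymerase II. Its labels do not name the actin gene that was mutated, the vector, whether the cells were a clone or a pool, the time in serum, or a starvation step. Whether the 2 libraries of a group are separate cultures is not stated either. The spread behind each p-value may therefore be technical.

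Actin cycles between monomers and filaments. G13R is an actin with a substitution that impairs filament formation, so the protein stays largely monomeric. Monomeric actin binds the coactivator MRTF and keeps it from SRF, the serum response factor that drives cytoskeletal genes. Serum also acts through ERK and ternary complex factors on immediate-early genes such as FOS and EGR1, which need no new protein to be transcribed. The inducible HSP70 chaperones refold damaged proteins, and their genes are driven by the heat shock factor HSF1 through heat shock elements in their promoters.

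Levels were analysed as log2(FPKM + 1), and the limma test shared 1 estimate of the spread per gene over all 8 libraries. A gene was called where the Benjamini-Hochberg adjusted p over all genes tested was under 0.05. Errors beside log2 fold changes are SE, and each group had n = 2 libraries. After serum, 43 genes were higher in G13R than in GFP cells and 64 were lower, 0.331% and 0.492% of the genes tested, or 0.823% together. Of these, 18 and 29 differed at least 2-fold on this scale. The highest adjusted p among them was 0.0487, and 97 of the 107 had an adjusted p above 0.03. In all 107 the G13R and GFP serum values did not overlap, as was the case in 51.92% of all genes tested. Non-overlap in the called genes named below therefore adds no support to their calls. At an unadjusted p under 0.05 there were 2705 genes, 20.8% of those tested. In bulk RNA, fewer cells expressing a gene and less RNA per cell cannot be told apart.

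The libraries were not alike in spread. Summed FPKM lay between 496166 and 559496 and genes at 1 FPKM or more between 12065 and 12568 per library, while read depth is unknown from FPKM. GFP serum replicate 2 stood apart, with 44.7 on a first principal component that held 53.9% of the variance, against 26.0 for GFP serum replicate 1 and 11.8 and 14.5 for the G13R serum libraries. The normal-growth libraries lay at -25.3 to -21.6, so GFP serum replicate 2 was the library farthest from them on this component. More than 2-fold differences separated the GFP serum libraries in 186 genes, against 87 to 102 within the other groups. Without GFP serum replicate 2, 9 genes were called, and 7 of these were among the 107. These were ACTB, HSPA6, HSPA1A, HSPA1B, FTH1, MIR3648 and SNORA11, with OSGIN1 and NDUFA7 beside them. NDUFA7 rests on 1 library, with 9.93 FPKM in GFP serum replicate 1 but 0.0038 in replicate 2. Its G13R serum values were 0.0013 and 0.00054 FPKM. Without GFP serum replicate 1, 1620 genes were called. Leaving out G13R serum replicate 1 or 2 gave 6 and 5, leaving out either G13R normal library 12, and leaving out either GFP normal library 10. Of the 107 genes, 4 were called in each of the 17 alternative analyses, namely ACTB, HSPA6, HSPA1A and HSPA1B, while 95 were called in 8 or fewer. All 107 kept their sign in each analysis in which they were tested. Where the text below gives a change without GFP serum replicate 2, the remaining GFP serum library is assumed to vary like the other groups.

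**Figure D1:**
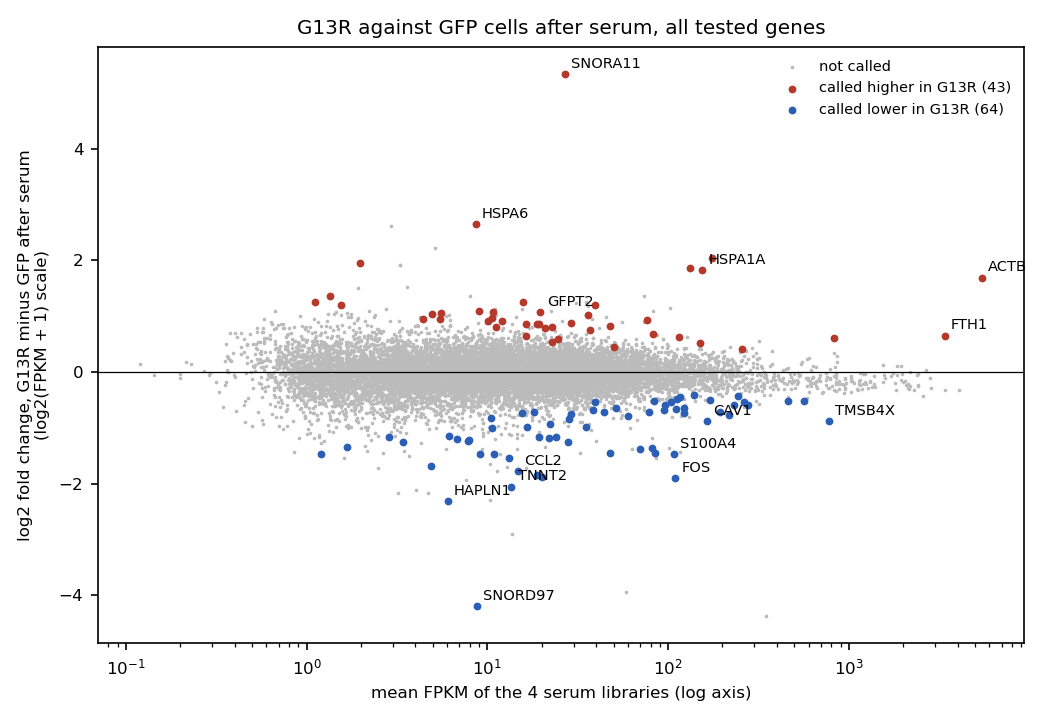
Each point is a tested gene, placed by its mean FPKM in the 4 serum libraries (log axis) and its log2 fold change, G13R minus GFP after serum, with the 43 called higher and 64 called lower genes coloured. ACTB and the HSP70 genes lie above the cloud at different levels of expression, and the short RNAs SNORA11 and SNORD97 at its edges are listed at 0 in both libraries of a group.

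The stress-inducible HSP70 genes had the 3 largest increases among the called genes with a mean of at least 2 FPKM in the serum libraries, once the short RNA genes SNORA11 and MIR3648 are set aside. Stretches of 250 bases before their starts are shown because these are the promoters through which heat shock factor acts, with matches to the heat shock element (GAANNTTC or TTCNNGAA, each its own reverse complement) in capitals. The sequences are from RefSeq on GRCh38.p14, 5′ to 3′ on the strand of the gene.
HSPA6, chr1:161524290-161524539, plus strand: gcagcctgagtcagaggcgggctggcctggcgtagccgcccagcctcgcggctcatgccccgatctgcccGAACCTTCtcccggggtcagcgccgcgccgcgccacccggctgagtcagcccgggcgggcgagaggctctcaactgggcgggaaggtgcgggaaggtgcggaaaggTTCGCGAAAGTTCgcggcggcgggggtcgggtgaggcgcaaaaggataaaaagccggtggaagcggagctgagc
HSPA1A, chr6:31815293-31815542, plus strand: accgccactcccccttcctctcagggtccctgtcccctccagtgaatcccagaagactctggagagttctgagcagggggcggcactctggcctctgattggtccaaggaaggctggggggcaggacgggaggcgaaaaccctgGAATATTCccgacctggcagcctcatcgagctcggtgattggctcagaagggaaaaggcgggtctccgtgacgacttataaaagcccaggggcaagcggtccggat
HSPA1B, chr6:31827488-31827737, plus strand: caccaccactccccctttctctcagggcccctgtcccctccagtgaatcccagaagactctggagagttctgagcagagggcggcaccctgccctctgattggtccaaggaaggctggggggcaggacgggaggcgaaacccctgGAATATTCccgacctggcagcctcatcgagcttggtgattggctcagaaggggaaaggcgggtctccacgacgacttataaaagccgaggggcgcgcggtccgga
HSPA6 held 3 matches, 2 of them overlapping, and HSPA1A and HSPA1B 1 each. In windows from 250 bases before to 50 after the start, 10.1% of 9601 tested genes with a RefSeq window held a match. Among the called genes with a window it was 6 of 29 higher genes (20.7%) and 6 of 41 lower genes (14.6%). The 6 higher genes included HSPA6, HSPA1A and HSPA1B, and the stretches of HSPA1A and HSPA1B shown above are nearly the same. A match is a run of letters and does not show binding.

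HSPA6 encodes an HSP70 that is made almost only under stress, and it lies at chromosome 1, 161494036 to 161496681 (hg19, whole gene span, as for all positions below). It stood at 15.8 and 15.5 FPKM in the G13R serum libraries and at 1.88 and 1.44 in the GFP serum libraries. Both G13R values were far above both GFP values, and the log2 fold change was 2.65 ± 0.15 (limma adjusted p = 3.55e-05). HSPA1A, which encodes the main inducible HSP70 (chromosome 6, 31783291 to 31785723), had 255 and 227 FPKM against 73.1 and 61.6, a log2 fold change of 1.83 ± 0.11 (adjusted p = 3.55e-05). Its neighbour HSPA1B (chromosome 6, 31795512 to 31798031) had 217 and 199 FPKM against 62.6 and 51.1, a log2 fold change of 1.86 ± 0.11 (adjusted p = 3.55e-05). The groups did not overlap in these genes. HSPA1A and HSPA1B shared 72.6% of their 50-base windows, so they are not separate measurements. The called gene HSPA7, named here after its values were seen, shared 45.5% of those of HSPA6 and is uncertain for the same reason. Without GFP serum replicate 2 the log2 fold changes were 2.53 for HSPA6, 1.71 for HSPA1A and 1.72 for HSPA1B, and the calls held.

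In the wider chaperone list no other gene was called. Of 30 tested HSP70 and heat shock genes, 3 were called higher and 0 lower, and these 3 were the genes above. The list had 23 members above 0 and 7 below, with a median log2 fold change of 0.21, where all genes tested had a median of -0.03 with 45% above 0. Its median was 0.12 without GFP serum replicate 2, and -0.11 in normal growth. The crystallin gene CRYAB, chosen after its values were seen, had the lowest change of the list, -0.53 ± 0.22 (adjusted p = 0.211), with 42.2 and 48.1 FPKM in G13R and 50.7 and 84.4 in GFP cells. In the chaperonin TRiC and prefoldin list, which includes folding factors of actin and tubulin, 1 of 16 was called, the prefoldin subunit gene PFDN2. PFDN2 had 176 and 177 FPKM in G13R and 133 and 112 in GFP cells, a log2 fold change of 0.53 ± 0.10 (adjusted p = 0.0455), and 0.40 without GFP serum replicate 2. The PFDN2 span overlaps that of NIT1, and no source used here gives the strand setting of the counting. That list's median was 0.10, and -0.003 without GFP serum replicate 2. ZFAND2A, a proteasome adaptor gene induced by arsenite and heat, was also called and is named after its values were seen. It had 28.1 and 31.2 FPKM against 18.5 and 20.2, a log2 fold change of 0.59 ± 0.11 (adjusted p = 0.0449).

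Actin transcripts were read beside the G13R label, though FPKM values do not show the substitution or which actin gene was introduced. ACTB, the gene of cytoplasmic beta-actin (chromosome 7, 5566782 to 5603415), had 8676 and 7949 FPKM in the G13R serum libraries and 2543 and 2615 in the GFP serum libraries. The groups lay far apart, with a log2 fold change of 1.69 ± 0.08 (adjusted p = 1.36e-05). FPKM values cannot tell transcripts of an introduced actin from those of the cells' own gene, so the value is not read as regulation. ACTG1, the other cytoplasmic actin gene, had 2039 and 2004 FPKM against 1767 and 1986, with a log2 fold change of 0.11 ± 0.08 (adjusted p = 0.470). The smooth muscle actin gene ACTA2 stood at 3.93 and 4.32 FPKM against 4.04 and 7.63, and its groups overlapped (-0.36 ± 0.27, adjusted p = 0.473). The changes were 0.19 for ACTG1 and 0.02 for ACTA2 without GFP serum replicate 2. The muscle actin genes ACTA1, ACTC1 and ACTG2 were below 1 FPKM throughout the 8 libraries and were not tested.

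**Figure D2:**
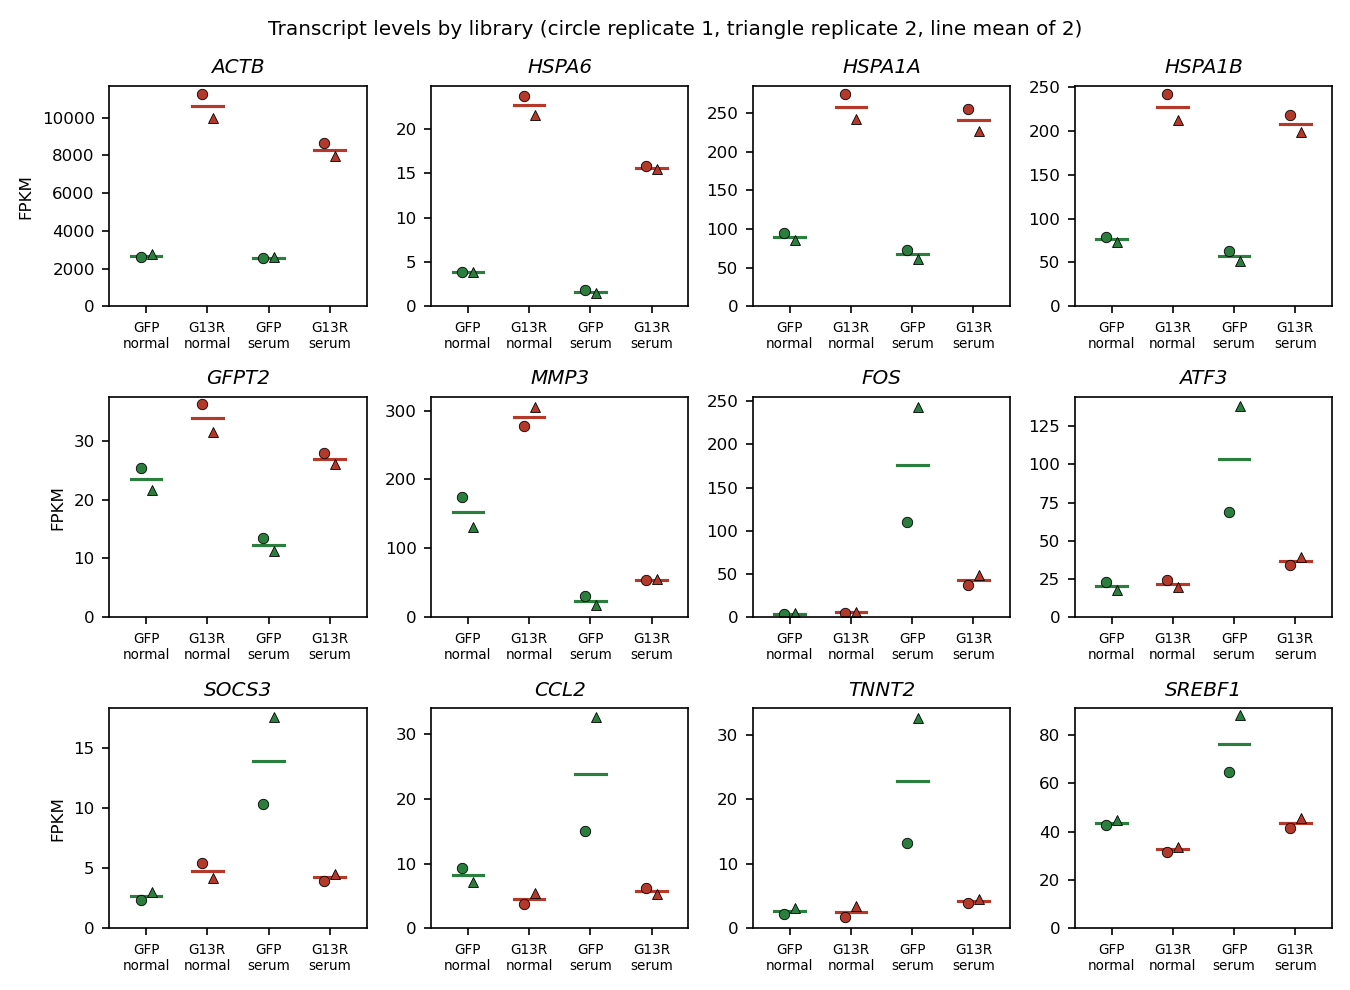
FPKM of 12 genes in each library, by group, with circles for replicate 1, triangles for replicate 2 and a line at the mean of 2; each vertical axis starts at 0. ACTB, HSPA6, HSPA1A and HSPA1B are high in both G13R groups, while in FOS, ATF3, SOCS3, CCL2 and TNNT2 the GFP serum replicate 2 triangle lies well above the GFP serum replicate 1 circle.

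Further increases, among named genes with a mean of at least 2 FPKM, were in ESM1, MMP3, GFPT2 and the genes after them. ESM1, which encodes the proteoglycan endocan (chromosome 5, 54273692 to 54318499), had 21.8 and 23.1 FPKM against 11.1 and 7.05 (1.25 ± 0.19, adjusted p = 0.0376). The matrix metalloproteinase gene MMP3 (chromosome 11, 102706532 to 102714534) had 53.6 and 55.6 FPKM against 30.5 and 17.5 (1.20 ± 0.21, adjusted p = 0.0443). GFPT2, which encodes an enzyme that opens the hexosamine pathway (chromosome 5, 179727690 to 179780387), had 28.0 and 26.0 FPKM against 13.4 and 11.2 (1.07 ± 0.13, adjusted p = 0.0178). Without GFP serum replicate 2 these changes were 0.95, 0.82 and 0.96, and none of the 3 was called.

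MICALCL, a gene related to the MICAL actin oxidases (chromosome 11, 12297627 to 12380691), had 13.8 and 11.3 FPKM against 4.87 and 5.85 (1.09 ± 0.16, adjusted p = 0.0376). SLCO4A1 and SLCO2B1 encode organic anion transporters. SLCO4A1 had 14.9 and 15.0 FPKM against 8.25 and 5.15 (1.08 ± 0.19, adjusted p = 0.0443), and SLCO2B1 had 9.15 and 6.61 against 3.44 and 3.05 (1.05 ± 0.20, adjusted p = 0.0487). IGF2BP3, an RNA-binding protein gene that overlaps MALSU1, had 7.51 and 6.44 FPKM against 3.35 and 2.43 (1.04 ± 0.19, adjusted p = 0.0449). The oxysterol-binding protein gene OSBP2 had 50.3 and 46.8 FPKM against 29.6 and 18.3 (1.03 ± 0.18, adjusted p = 0.0443). Without GFP serum replicate 2 the changes were 1.20 for MICALCL, 0.78 for SLCO4A1, 0.99 for SLCO2B1, 0.87 for IGF2BP3 and 0.70 for OSBP2.

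Smaller increases came from the lists. COL6A3, a chain of collagen VI, had 27.9 and 26.5 FPKM against 17.8 and 18.9 (0.54 ± 0.10, adjusted p = 0.0443). With MMP3 it was 1 of the 2 called members among 31 tested genes of matrix, adhesion and metalloproteinases, whose median was -0.11 with 11 above 0 and 20 below, and -0.07 without GFP serum replicate 2. CEBPB, a transcription factor of the amino acid stress list, had 58.9 and 57.1 FPKM against 40.5 and 43.8 (0.45 ± 0.09, adjusted p = 0.0487) and was the 1 called member of 25. That list had 21 members above 0 and a median of 0.10. COL6A3 stood at 0.59 and CEBPB at 0.51 without GFP serum replicate 2, so neither change was smaller there, yet neither was called.

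FTH1, HMOX1 and MT2A were also called higher, and are named after their values were seen. FTH1, the ferritin heavy chain that stores iron, had 4272 and 4014 FPKM against 2824 and 2472 (0.65 ± 0.08, adjusted p = 0.0144). HMOX1, which breaks down haem, had 104.7 and 94.7 FPKM against 61.7 and 43.4 (0.93 ± 0.14, adjusted p = 0.0376). MT2A, a metal-binding metallothionein, had 1045 and 956 FPKM against 750 and 569 (0.61 ± 0.11, adjusted p = 0.0483). FTH1 kept its call without GFP serum replicate 2.

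Of the immediate-early genes, FOS and ATF3 were lower in G13R cells. FOS encodes a partner of JUN in the AP-1 factor (chromosome 14, 75745477 to 75748933). It had 37.7 and 48.7 FPKM in the G13R serum libraries and 110 and 243 in the GFP serum libraries. The groups did not overlap, and the GFP libraries differed from each other by more than 2-fold. FOS was lower by a log2 fold change of -1.91 ± 0.30 (adjusted p = 0.0376), and of -1.34 without GFP serum replicate 2 (adjusted p = 0.0855). ATF3, a stress-induced repressor (chromosome 1, 212738676 to 212794119), had 33.9 and 39.6 FPKM against 68.7 and 138 (-1.39 ± 0.26, adjusted p = 0.0487), and -0.89 without that library (adjusted p = 0.137).

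Of 30 tested immediate-early genes, 2 were called lower, FOS and ATF3, and 0 higher. Of all genes tested, 0.492% were called lower and 55% lay below 0. The immediate-early list had 21 members below 0 and 9 above, with a median of -0.41. Without GFP serum replicate 2 it had 17 below 0 and 13 above, with a median of -0.08. In normal growth the list's median was 0.11. EGR1, a zinc finger factor, had 170 and 210 FPKM against 191 and 272 (-0.27 ± 0.16, adjusted p = 0.365), and -0.02 without that library. The G13R and GFP values of EGR1 overlapped. Members with large differences that did not pass, chosen after their values were seen, were EGR2 with 1.84 and 2.12 FPKM against 4.64 and 21.8 (adjusted p = 0.0822) and FOSB with 5.57 and 3.23 against 10.8 and 22.0 (adjusted p = 0.0511). FOSL1, another AP-1 partner, lay on the other side of 0 with 118 and 108 FPKM against 82.8 and 67.4 (0.59 ± 0.12, adjusted p = 0.0535). MYC was listed at 120 and 110 FPKM against 95.7 and 71.9 (0.46 ± 0.12, adjusted p = 0.0910), with 0.26 without GFP serum replicate 2.

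Targets of SRF with MRTF, the arm that binds actin monomers, showed no call besides ACTB. Of 31 tested, 1 was called higher, ACTB, and 0 lower, with 22 below 0 and a median of -0.09. The 22 include FLNA, which is listed at 0 FPKM in G13R serum replicate 2 and may be a failed estimate there. SRF itself had 24.0 and 23.9 FPKM against 20.3 and 23.3 (0.13 ± 0.11, adjusted p = 0.523). VCL, which links integrins to actin, had 40.2 and 45.8 FPKM against 46.1 and 47.9 (-0.13 ± 0.11, adjusted p = 0.524). The matricellular genes CTGF and CYR61, which answer to YAP as well, had 436 and 474 FPKM against 493 and 547 (CTGF, -0.19 ± 0.09, adjusted p = 0.258) and 374 and 409 against 471 and 599 (CYR61, -0.44 ± 0.11, adjusted p = 0.0843). Among all genes tested 55% lay below 0. None of the 25 YAP and TEAD targets tested was called, with 16 below 0 and a median of -0.19. With GFP serum replicate 2 left out that median was -0.09, CTGF stood at -0.12, CYR61 at -0.27 and SRF at 0.23.

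Genes for proteins that bind actin monomers, or sever and cap filaments, had 1 of 24 called. This was TMSB4X, thymosin beta 4, the most abundant buffer of actin monomers in many cells (chromosome X, 12993227 to 12995346). It had 499 and 586 FPKM in the G13R and 831 and 1193 in the GFP serum libraries, so the groups did not overlap (-0.88 ± 0.15, adjusted p = 0.0443). The value was -0.62 without GFP serum replicate 2 (adjusted p = 0.115). Neither actin nucleation genes, with 29 tested and a median of 0.04 (0.009 without GFP serum replicate 2), nor genes for nuclear actin transport and MRTF cofactors, with 12 tested and a median of 0.12, had a called member.

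RNA polymerase II subunit genes, the machinery the series is about, had 0 of 12 called and a median of 0.07, which was 0.11 with GFP serum replicate 2 left out and -0.004 when replicate 1 was left out instead. POLR2A, the largest subunit, had 350 and 324 FPKM against 277 and 296 (0.23 ± 0.07, adjusted p = 0.120). The 33 tested genes of pausing, elongation and Mediator had 0 called and a median of -0.04, or -0.07 without GFP serum replicate 2. These are transcript levels and do not measure the polymerase on genes.

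The 3 largest decreases beside FOS, CCL26 and the short RNA gene SNORD97 were in HAPLN1, TNNT2 and TNNC1. HAPLN1, which links hyaluronan to proteoglycans (chromosome 5, 82933624 to 83017432), had 0.771 and 1.36 FPKM in the G13R and 4.63 and 17.4 in the GFP serum libraries (-2.32 ± 0.44, adjusted p = 0.0487). TNNT2, cardiac troponin T (chromosome 1, 201328136 to 201346890), had 3.998 and 4.55 FPKM against 13.2 and 32.6 (-2.05 ± 0.36, adjusted p = 0.0443). TNNC1, the troponin that binds calcium (chromosome 3, 52485118 to 52488086), had 6.83 and 7.46 FPKM against 19.2 and 41.6 (-1.85 ± 0.32, adjusted p = 0.0443). In each of the 3 genes the groups were apart, as in all called genes, and GFP serum replicate 2 was more than 2-fold above GFP serum replicate 1. Without it the changes were -1.46, -1.43 and -1.31, and none was called.

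CCL2, CCL26 and SOCS3, which take part in cytokine signalling, were also lower, with GFP serum replicate 2 again above replicate 1. Without GFP serum replicate 2 the changes were -1.25 for CCL2, -1.39 for CCL26 and -1.12 for SOCS3. CCL2, a monocyte chemoattractant (chromosome 17, 32582237 to 32584222), had 6.23 and 5.29 FPKM against 15.0 and 32.6 (-1.78 ± 0.31, adjusted p = 0.0443). CCL26, an eosinophil chemoattractant (chromosome 7, 75398851 to 75419214), had 7.62 and 7.67 FPKM against 21.7 and 43.4 (-1.88 ± 0.32, adjusted p = 0.0443). SOCS3, a feedback inhibitor of cytokine receptors (chromosome 17, 76352864 to 76356158), had 3.97 and 4.49 FPKM against 10.3 and 17.5 (-1.47 ± 0.24, adjusted p = 0.0376). CCL2 and SOCS3 were the 2 called members among 21 tested genes of the NF-kappaB and cytokine list. The list as a whole lay the other way, with 14 members above 0 and a median of 0.17.

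Other large decreases were spread over unrelated functions. S100A4, a calcium-binding protein tied to cell motility (chromosome 1, 153516089 to 153522612), had 52.6 and 59.6 FPKM against 129 and 190 (-1.47 ± 0.19, adjusted p = 0.0253). Its change of -1.19 without GFP serum replicate 2 had an adjusted p of 0.0877. CADM3, a cell adhesion molecule, had 5.25 and 5.13 FPKM against 13.2 and 19.9 (-1.48 ± 0.23, adjusted p = 0.0376). PLAC8 had 22.7 and 25.2 FPKM against 46.6 and 97.2 (-1.46 ± 0.28, adjusted p = 0.0487). The long noncoding RNA gene MIAT had 1.53 and 1.76 FPKM against 4.78 and 11.5 (-1.69 ± 0.32, adjusted p = 0.0487). VWA5B2, whose span overlaps EIF2B5 and ALG3, had 6.07 and 5.88 FPKM against 13.3 and 27.4 (-1.53 ± 0.29, adjusted p = 0.0487). For CADM3, PLAC8, MIAT and VWA5B2 the changes without GFP serum replicate 2 were -1.20, -0.93, -1.13 and -1.04, with no call.

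Sterol synthesis and uptake genes, which SREBP factors induce when cholesterol is short, had 2 of 26 called lower and 0 higher. Of all genes tested, 0.492% were called lower and 55% lay below 0. SREBF1, which encodes SREBP1 (chromosome 17, 17713713 to 17740325), had 41.4 and 45.7 FPKM against 64.5 and 88.2 (-0.78 ± 0.14, adjusted p = 0.0443). SREBF1 stood at -0.56 without GFP serum replicate 2 and was not called there (adjusted p = 0.137). The list had 23 members below 0 and 3 above, with a median of -0.39, and 21 below with -0.29 without GFP serum replicate 2. SCD, the desaturase that makes oleate, was the 1 called member of 20 fatty acid genes, with 79.7 and 88.1 FPKM against 113 and 133 (-0.55 ± 0.10, adjusted p = 0.0487).

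Growth arrest and cell cycle lists also lay mostly below 0. Of all genes tested, 0.492% were called lower and 55% lay below 0. Their median was -0.03 after serum and -0.07 in normal growth. The FOXO and starvation list had 18 of 21 members below 0 and a median of -0.43, with 0 called. Its median was -0.27 without GFP serum replicate 2, and 0.003 in normal growth. The p53 targets had 21 of 25 below 0 and a median of -0.35, and 17 below 0 with a median of -0.20 without that library. Their median in normal growth was -0.08. PLK2, a p53-induced kinase, was the 1 called, with 76.9 and 74.9 FPKM against 101 and 130 (-0.59 ± 0.11, adjusted p = 0.0487). Mitosis genes had 34 of 35 below 0, a median of -0.31 and 0 called. Their median was -0.18 without GFP serum replicate 2, and -0.32 in normal growth. The replication and G1/S list had 29 of 35 below 0 and a median of -0.17, and of -0.28 in normal growth. TYMS, thymidylate synthase, was its 1 called member, with 138 and 144 FPKM against 184 and 217 (-0.50 ± 0.09, adjusted p = 0.0487).

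Ribosome biogenesis genes had the highest median of the 30 lists, 0.35, with 29 of 32 members above 0 and 0 called. RRP12 and RRP9, processing factors chosen after their values were seen, had 30.5 and 28.1 FPKM against 22.7 and 12.98 (adjusted p = 0.0918) and 44.0 and 42.4 against 33.5 and 21.2 (adjusted p = 0.0758). The median was 0.20 without GFP serum replicate 2, with 27 above 0, and it was -0.18 in normal growth. Among all genes tested 45% lay above 0 and 55% below. Cytosolic ribosomal protein genes had 38 of 40 below 0 and a median of -0.17, which was -0.02 after quantile normalization. It was -0.08, with 31 below 0, without GFP serum replicate 2. Of 40 oxidative phosphorylation genes, 1 was called, ATP5C1, a subunit of ATP synthase, with 89.3 and 96.8 FPKM against 126 and 134 (-0.48 ± 0.08, adjusted p = 0.0443). The list's median was -0.19, and -0.09 without GFP serum replicate 2.

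Over the lists together, 19 of 775 tested genes were called, 2.45%, 8 higher and 11 lower, against 0.823% of all genes tested. The lists were written with earlier results of these data known, so these shares are no test of the lists. The TGF-beta and BMP target list had 0 of 22 called and a median of -0.19. That median was 0.03 without GFP serum replicate 2, and 0.36 in normal growth. TGFBI, a matrix protein induced by TGF-beta, had 14.02 and 17.1 FPKM in G13R and 14.3 and 17.3 in GFP cells after serum (-0.02 ± 0.13, adjusted p = 0.951). In normal growth it stood at 50.2 and 49.4 FPKM against 28.3 and 29.4 (0.77 ± 0.13, adjusted p = 0.0726).

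**Figure D3:**
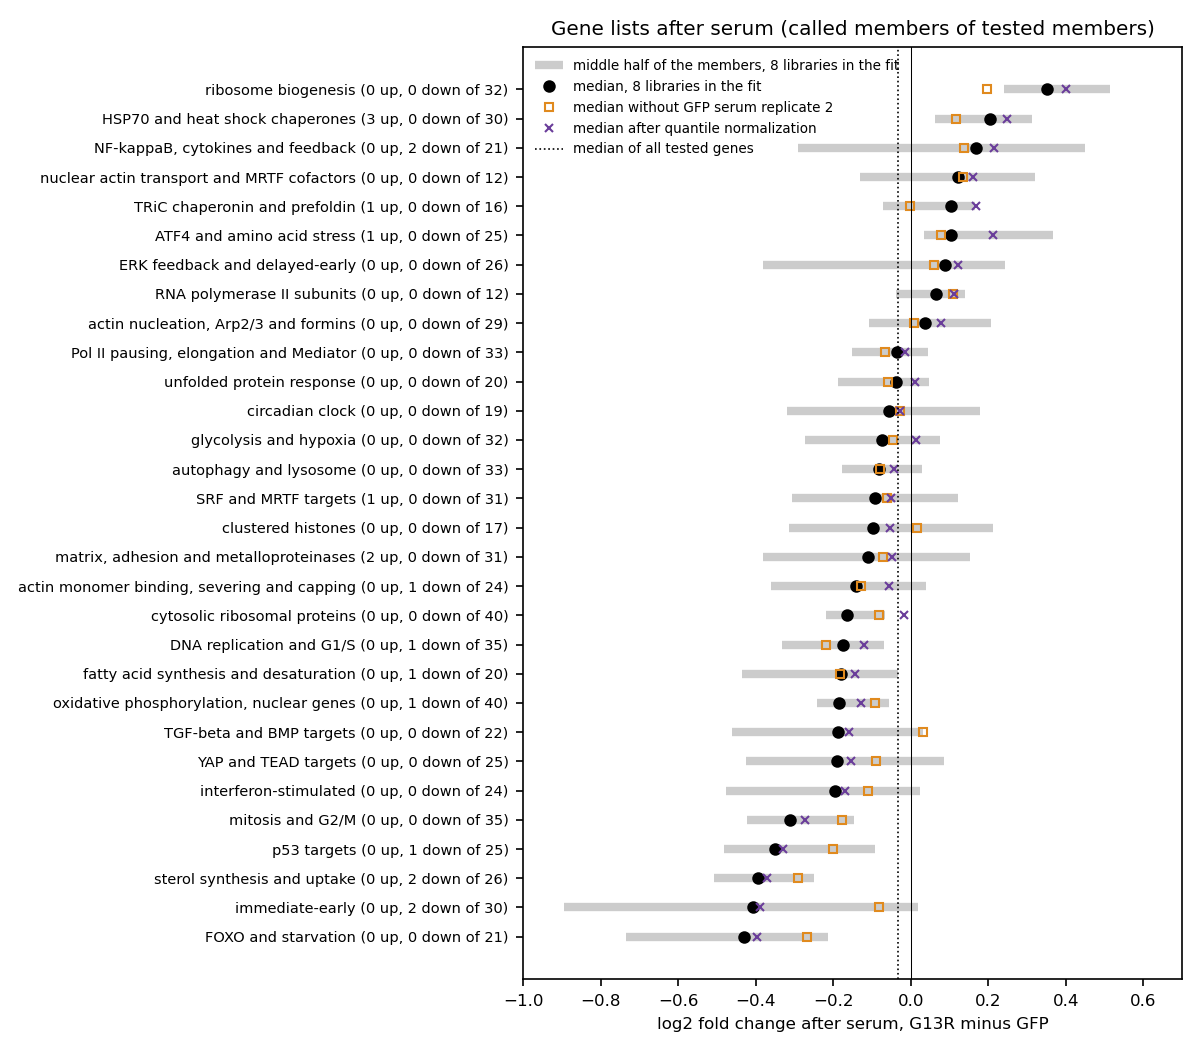
Median log2 fold change, G13R minus GFP after serum, of the tested members of each of 30 gene lists (black dots), with the interquartile range of the members as a grey bar, the median without GFP serum replicate 2 (squares) and after quantile normalization (crosses); the dotted line is the median of all tested genes, and each label counts called members. Ribosome biogenesis has the highest median at 0.35 and the FOXO list the lowest at -0.43, and the immediate-early square lies near 0 at -0.08.

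Markers of cell types were read beside these results. Epithelial markers summed to 712 and 716 FPKM in the G13R and 914 and 1075 in the GFP serum libraries, nearly all from the keratin genes KRT8 and KRT18. KRT18 was itself called lower, with 377 and 381 FPKM against 516 and 580. Osteoblast markers summed to 598 and 664 FPKM against 780 and 932, mostly from SPARC. Of the 7 osteoblast markers tested, 4 lay below 0 and 3 above. Of these, SPARC, a matrix protein, had 467 to 765 FPKM and RUNX2, the lineage factor, 3.99 to 9.91, while IBSP was listed at 0 in all 4 libraries and SP7 in 3 of them. The leukocyte sums were 14.7 and 16.3 FPKM against 15.1 and 17.7, mostly the lysosomal gene CD68, with CD3E and TYROBP at 0 in the 4 libraries. Neural sums were 46.3 and 44.3 FPKM against 45.4 and 44.8. Endothelial sums were 10.4 and 10.6 FPKM against 6.90 and 5.01, of which ROBO4 made most, with PECAM1 at 0 in the 4 libraries. Of 10 markers a set, 7 osteoblast, 7 epithelial, 3 leukocyte, 6 neural and 1 endothelial passed the filter. The part of the lower epithelial and osteoblast sums in the gene results was not tested.

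Several called genes rest on values that FPKM estimation makes fragile. SNORA11, a small nucleolar RNA gene with a span of 128 bases inside NUDT13, had 90.1 and 16.9 FPKM in the G13R and was listed at 0 in both GFP serum libraries. SNORD97, with a span of 142 bases inside EIF4G2, was listed at 0 in both G13R and had 20.5 and 14.6 FPKM in both GFP serum libraries. A listed 0 can be a failed estimate: FLNA, an abundant filamin gene, was listed at 0 in G13R serum replicate 2 and at 478 FPKM in replicate 1, with 456 and 451 in the GFP serum libraries. No fold is given for SNORA11, SNORD97 and FLNA for that reason. Genes named in this paragraph were chosen after their values were seen.

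The same contrast in normal growth compares other libraries than that after serum, and was used to see whether the differences were present without serum. The spread per gene behind the serum calls came from all 8 libraries, those of normal growth included. The shares without overlap given here are therefore no independent check of those calls. In normal growth 6 genes were called, 0.0462% of those tested. Of the 43 genes higher after serum, 32 (74.4%) were also above 0 in normal growth, and in 28 (65.1%) the groups did not overlap there in the same direction. Among all tested genes above 0 after serum, 42.8% were above 0 in normal growth and 18.4% did not overlap in that direction. Of the 64 lower genes, 52 (81.25%) were also below 0 and 44 (68.75%) did not overlap in that direction. Among all tested genes below 0 after serum these shares were 69.6% and 40.1%. The median change of the higher genes was 0.93 after serum and 0.21 in normal growth, and that of the lower genes -0.90 and -0.39. Since the 107 were chosen for their size after serum, a smaller median elsewhere is no test. Across all 12996 genes the serum and normal growth changes had Pearson's r = 0.179 and Spearman's rho = 0.205, where genes are not independent replicates.

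The 4 genes called in both conditions were ACTB, HSPA6, HSPA1A and HSPA1B. In normal growth HSPA6 had 23.7 and 21.6 FPKM in G13R and 3.90 and 3.84 in GFP cells (2.28 ± 0.15), and HSPA1A had 275 and 242 against 94.5 and 85.8 (1.51 ± 0.11). ACTB had 11245 and 10010 FPKM against 2602 and 2779 (1.98 ± 0.08). None of the 64 lower genes was called in normal growth. FOS had 4.84 and 6.70 FPKM in G13R and 4.04 and 4.61 in GFP cells there (0.34 ± 0.30, adjusted p = 0.639). SOCS3 stood at 5.39 and 4.20 FPKM against 2.35 and 2.98 (0.66 ± 0.24, adjusted p = 0.240), on the other side of 0 from its change after serum. IGF2BP3 also lay on the other side, with 4.29 and 5.69 FPKM against 7.92 and 8.17 (-0.60 ± 0.19, adjusted p = 0.189).

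Whether a G13R difference after serum departed from that in normal growth was tested directly as an interaction in limma. The test called 0 of 12996 genes (0%), with a smallest adjusted p of 0.259, and 1533 genes had an unadjusted p under 0.05. For FOS the difference of differences was -2.24 ± 0.42 (adjusted p = 0.259), for SOCS3 -2.13 ± 0.33 (adjusted p = 0.259), and for IGF2BP3 1.65 ± 0.26 (adjusted p = 0.259). For HSPA6 it was 0.37 ± 0.21 (adjusted p = 0.510) and for ACTB -0.29 ± 0.11 (adjusted p = 0.359). No gene is therefore shown to differ between serum and normal growth at this threshold, nor is any shown not to. Without GFP serum replicate 1 the interaction called 486 genes, and without G13R serum replicate 1, 2.

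**Figure D4:**
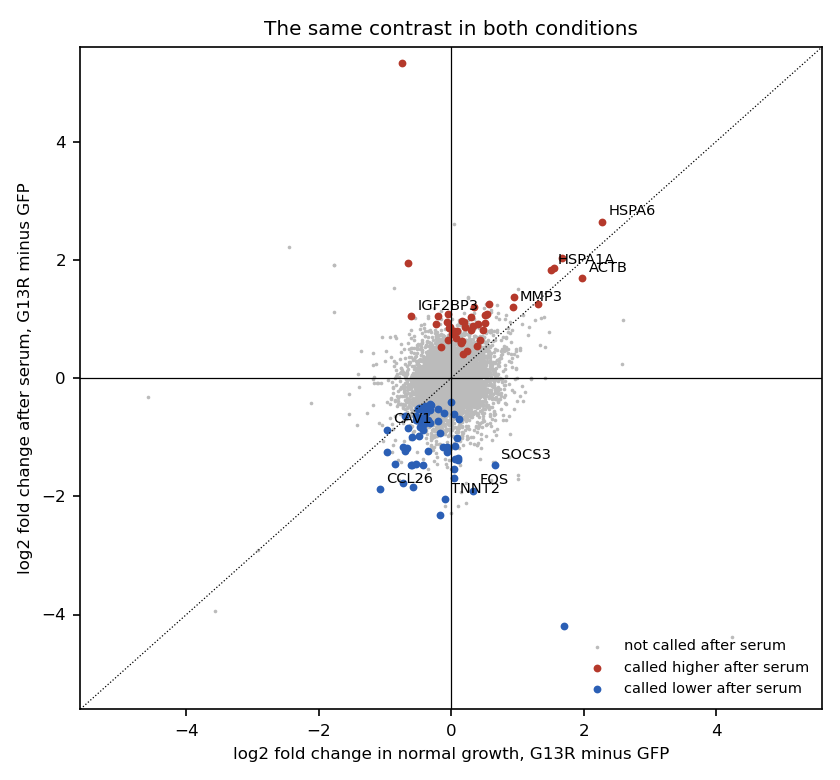
Log2 fold change, G13R minus GFP, of each tested gene in normal growth (horizontal) and after serum (vertical), with genes called after serum coloured and the line of equal change dotted. ACTB, HSPA6 and HSPA1A lie near the line of equal change at upper right, while FOS, SOCS3 and TNNT2 lie well below 0 after serum and close to or above 0 in normal growth.

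The serum libraries of GFP cells enter every difference above, and they were not equally far from the G13R libraries. GFP serum replicate 2 was farther from the G13R mean than GFP serum replicate 1 in 33 of the 43 higher genes (76.7%) and in 60 of the 64 lower genes (93.75%), against 67.7% of all tested genes. The median change of the higher genes was 0.77 against replicate 1 alone and 1.06 against replicate 2 alone, and that of the lower genes -0.72 and -1.09.

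**Figure D5:**
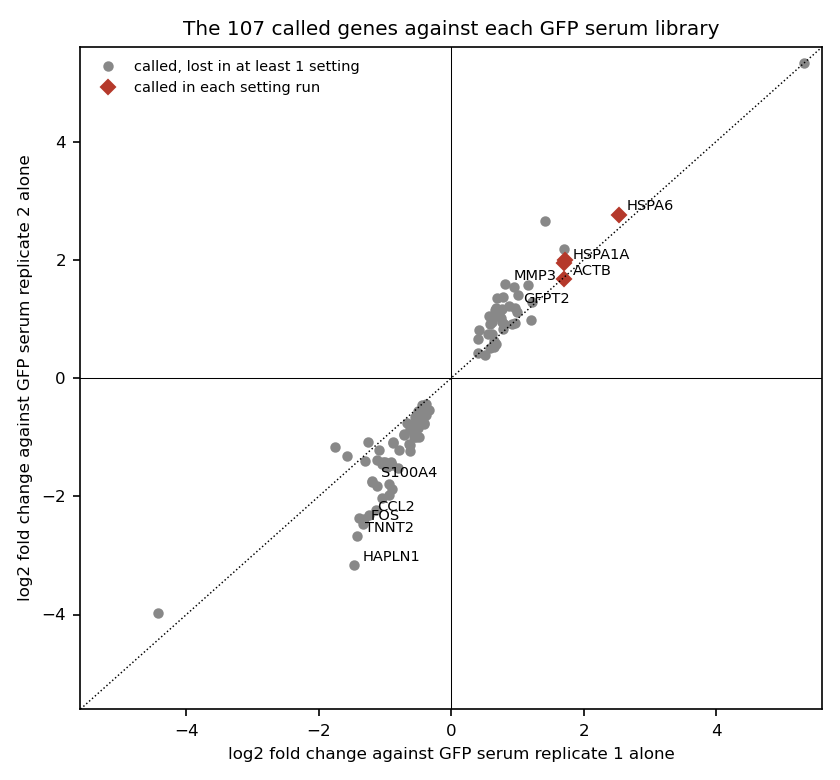
Log2 fold change of the 107 called genes with GFP serum replicate 1 as the only GFP serum library (horizontal) and with replicate 2 as the only one (vertical); diamonds mark the 4 genes called in each analysis run, and the dotted line marks equal change. Lower genes such as FOS, TNNT2 and HAPLN1 lie below the line, farther from 0 against replicate 2, while the 4 diamonds lie close to it.

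Other promoter motifs were described for the same genes. The TEAD letters (GGAATG or CATTCC) were in 8 of 41 windows of lower genes (19.5%), 1 of 29 of higher genes (3.45%) and 11% of all. The AP-1 letters (TGACTCA or TGAGTCA) were in 4 of 29 windows of higher genes (13.8%), 2 of 41 of lower genes (4.88%) and 3.26% of all, and HSPA6 was 1 of the 4. The CArG box, the site of SRF, was in 0 of 29 higher, 1 of 41 lower (PLAC8) and 0.948% of all windows, and the cyclic AMP element TGACGTCA was in 1 of 29 higher (VGF), 0 of 41 lower and 3.27% of all. Both strands were read, and windows of 300 bases were found for 29 of 43 higher and 41 of 64 lower genes.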

How the data were processed

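Poly(A) RNA of U2OS cells was sequenced in 4 groups of 2 libraries, and the authors deposited 1 table of FPKM per gene and library. TopHat2 2.0.13, Cufflinks 2.2.1 and the builds hg19 and BDGP5 are named in the submitters' processing notes, and no source used here names the annotation. Columns were matched to libraries by name, and 0 were left unmatched. Starts counted from 0 (end minus start was a multiple of 3 in 81.8% of 148 olfactory receptor genes), so 1 was added. Spreadsheet dates replaced 28 symbols, 22 of them tested but not named. Low values held no common step per read (7.8 to 13.7% of genes under 0.25 FPKM lay at the commonest ratio), so no reads were recovered, depth is unknown, and no count model was run.

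Genes with at least 1 FPKM in 2 libraries were fitted as log2(FPKM + 1) in limma 3.58.1 (R 4.3.3) with an intensity trend and 1 mean per group, leaving 4 residual degrees of freedom. This scale understates changes of low genes. Adjusted p-values in the text are Benjamini-Hochberg values over all 12996 genes from this fit. The fit was tested on simulated data that gave each gene 1 spread for all groups. The wider spread of the GFP serum libraries was not part of that test.

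The members, the 30 gene lists (846 genes, 775 tested) and the marker sets were chosen with earlier results of these data known. Named genes were in each direction up to 12 called genes of largest change, with groups that did not overlap and a mean of 2 FPKM or more over the serum libraries, up to 3 called members per list, and ACTB, ACTG1, ACTA1, ACTA2, ACTC1, ACTG2, FOS, EGR1, SRF, VCL, CTGF, CYR61, MYC, HSPA1A, HSPA6, POLR2A and TGFBI. Short RNA genes (microRNA and small nucleolar RNA), transcripts known only by LOC, LINC or open reading frame symbols, and date-like symbols were skipped, and 1 gene that the rule chose is not reported here. With fewer than 5 genes in a direction, the 10 of smallest p would have been taken. Promoter windows were from RefSeq (GRCh38.p14) and transcript windows from GENCODE, matched by symbol. Cufflinks divides reads among similar and overlapping genes, whose values are therefore uncertain. Alternatives were other pseudocounts, filters, scalings, fits and left-out libraries.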

Additional observations from a re-analysis of the deposited data

How the results depend on the processing

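The 107 genes called after serum (43 higher, 64 lower) became 73 with a pseudocount of 0.1, 145 under median-ratio scaling, and 133 without genes spanning under 200 bases, an alternative chosen after seeing the data. They became 4 without the filter on low values, 263 with a filter of 5 FPKM, 6 without the intensity trend, 6 with only the 4 serum libraries in the fit, and 47 with a 2-fold minimum. Quantile normalization gave 180, of which 93 were higher and 87 lower (51.67% higher, against 40.19% of the 107). Leaving out each library in turn gave 5 to 1620. The interaction, 0 in the analysis reported, was 1 with a pseudocount of 0.1 (SNORA11), 2 after quantile normalization (GAPDH and EEF1A1), and 0 to 486 with each library left out. The other alternatives in which it was fitted gave 0, and with only the 4 serum libraries it could not be fitted. The labels do not say whether replicate numbers pair the libraries. The correlation of same-numbered deviations was low but positive in each of 6 pairs of groups, 0.017 to 0.12, and 0.0958 for the serum groups. With the replicate block the count was 403 (127 higher, 276 lower), and the interaction 0. Of the values of single named genes under the alternatives, 444 stayed on their side of the threshold, 313 lost a call, 6 gained one and 0 changed direction beyond it. The cause of these shifts was not tested. Depth is unknown and each group had 2 libraries, which limits the precision.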

Other observations

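Called genes that the report leaves out, named after their values were seen, included CAV1, TUBB and SAA1. CAV1, the coat protein of caveolae, had 112 and 117 FPKM in the G13R and 179 and 249 in the GFP serum libraries (-0.87 ± 0.14, adjusted p = 0.0397), and lay at -0.97 in normal growth. TUBB, a beta-tubulin gene, had 443 and 492 FPKM against 623 and 712 (-0.51 ± 0.09, adjusted p = 0.0455), and lay at -0.48 in normal growth. STMN1, which encodes a protein that binds tubulin, had 205 and 227 FPKM against 300.5 and 324 (-0.53 ± 0.08, adjusted p = 0.0376). TUBA1A, an alpha-tubulin gene, had 90.7 and 89.6 FPKM against 127 and 181 (-0.74 ± 0.14, adjusted p = 0.0487), but shared 24.5% of its 50-base windows with TUBA1C. The acute phase gene SAA1 had 18.2 and 14.2 FPKM against 36.1 and 43.4 (-1.25 ± 0.16, adjusted p = 0.0227), and shared 21.9% of its windows with SAA2, which was also called lower. None of these genes was called without GFP serum replicate 2.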
